A study of Mus musculus with 32 samples.

Results

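The genes described here are 31 members of hepatic glucose handling: enzymes of gluconeogenesis and glycolysis, the enzymes that build and break down glycogen with the subunits that target protein phosphatase 1 to it, glucose transporters, the insulin receptor with its substrates, and Rgs16. They were chosen by gene symbol, as the array probes that carry 1 of the 31 names, and not by their values. They are 31 of 34947 named genes on the array. All 31 were among the 21290 genes that could be tested. The probe that stood for a gene was well above background on every array for 30 members. For Ppp1r3g this held on 31 of 32 arrays.

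Liver RNA came from male C57/BL6 mice, 8 weeks old at the start, in 8 groups of 4 samples, with 1 array each. C mice had a standard chow diet and MCD mice a diet lacking methionine and choline, for 3 weeks up to partial hepatectomy (PH). The MCD diet is a model of fatty liver with inflammation in which animals also lose weight. Mice named M+Fc-GLP-1 (MCD diet) or C+Fc-GLP-1 (chow) were treated over the final 2 weeks of that period, and the other groups received saline. The same 4 conditions were sampled again 2 weeks after removal of 70% of the liver, with diet and treatment continued. The treatment is given in the study and in part of the labels as Fc-GLP-1, a long-acting agonist of the GLP-1 receptor (10 nmol/kg). The remaining labels name a compound that acts on both the glucagon and the GLP-1 receptor, given daily at 4.4 mg/kg. Among the source labels, only that of C+Fc-GLP-1 mice after PH names a dual agonist, for the 2 weeks after PH. It is not known here which was used, or whether it was the same in all treated groups. By that label, the drug could differ between the diets in treated mice after PH and between the times in C+Fc-GLP-1 mice. Per the study, livers before PH were the pieces taken out at surgery from the groups later sampled after PH, and sample names at both times share numbers. Animals may thus have been sampled at both times, although the shared numbers could instead be positions on an array slide. No source used here ties an array before PH to one after it, and the times were compared as unpaired.

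The liver keeps blood glucose steady by storing it as glycogen after a meal and by releasing it during fasting. Glycogen synthase (Gys2) and glycogen phosphorylase (Pygl) are switched in opposite directions by phosphorylation. The targeting subunits Ppp1r3b, Ppp1r3c and Ppp1r3g bring protein phosphatase 1 to the glycogen particle, where it activates the synthase. Glucagon, acting through cyclic AMP and CREB, and the coactivator Ppargc1a raise Pck1 and G6pc, the enzymes that commit carbon to glucose. Insulin, acting through Insr, Irs1 and Irs2, restrains them by moving Foxo1 out of the nucleus. Rgs16 encodes a regulator of G protein signalling that in mouse liver follows the daily feeding rhythm.

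The upstream sequences of 7 members are shown because the account of the diet below opens with them. They were picked after their values were seen, and promoters of other called members are not shown. Each line holds the 250 bases before a start site of the gene in the RefSeq promoters of GRCm38.p6, read 5′ to 3′ on the strand of the gene, for the site listed earliest where there are several, as in Pfkfb2. Capitals mark CACGTG, the E-box core that clock proteins and other basic helix-loop-helix factors bind, and TGACG, the CREB response element half-site, on either strand. Of the 7, Rgs16 holds neither motif.
Rgs16, chr1:153740103-153740352, + strand: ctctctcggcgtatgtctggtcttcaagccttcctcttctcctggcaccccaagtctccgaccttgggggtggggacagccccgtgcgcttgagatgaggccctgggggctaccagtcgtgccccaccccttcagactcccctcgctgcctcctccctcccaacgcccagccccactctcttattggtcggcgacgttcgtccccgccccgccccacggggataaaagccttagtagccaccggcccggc
Ppp1r3g, chr13:35967656-35967905, + strand: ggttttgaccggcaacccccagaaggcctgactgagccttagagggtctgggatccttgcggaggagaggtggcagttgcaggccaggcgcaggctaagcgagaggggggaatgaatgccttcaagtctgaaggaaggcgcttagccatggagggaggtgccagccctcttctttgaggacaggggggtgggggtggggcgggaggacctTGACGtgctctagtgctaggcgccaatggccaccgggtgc
Ppp1r3c, chr19:36736605-36736854, - strand: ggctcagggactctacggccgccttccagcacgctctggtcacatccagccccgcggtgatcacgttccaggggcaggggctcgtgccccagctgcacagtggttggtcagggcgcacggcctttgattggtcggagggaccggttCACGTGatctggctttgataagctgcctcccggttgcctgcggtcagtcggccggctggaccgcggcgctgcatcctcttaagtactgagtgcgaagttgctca
Pygl, chr12:70227684-70227933, - strand: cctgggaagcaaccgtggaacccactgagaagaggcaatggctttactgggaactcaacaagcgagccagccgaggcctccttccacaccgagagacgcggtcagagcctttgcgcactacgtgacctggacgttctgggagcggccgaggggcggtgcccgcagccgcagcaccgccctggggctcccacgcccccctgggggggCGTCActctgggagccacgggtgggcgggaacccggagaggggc
Pfkfb2, chr1:130715822-130716071, - strand: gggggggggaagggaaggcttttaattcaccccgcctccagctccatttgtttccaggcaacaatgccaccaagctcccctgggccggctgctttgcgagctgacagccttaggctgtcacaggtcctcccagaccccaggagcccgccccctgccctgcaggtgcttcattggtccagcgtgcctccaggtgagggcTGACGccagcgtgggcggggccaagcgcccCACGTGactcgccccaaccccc
Pck1, chr2:173152823-173153072, + strand: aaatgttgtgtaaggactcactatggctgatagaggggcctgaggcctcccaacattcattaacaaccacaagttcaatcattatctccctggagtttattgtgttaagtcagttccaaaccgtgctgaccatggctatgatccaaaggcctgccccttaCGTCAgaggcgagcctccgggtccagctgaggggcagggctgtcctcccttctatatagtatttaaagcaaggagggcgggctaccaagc
Ppargc1a, chr5:51567726-51567975, - strand: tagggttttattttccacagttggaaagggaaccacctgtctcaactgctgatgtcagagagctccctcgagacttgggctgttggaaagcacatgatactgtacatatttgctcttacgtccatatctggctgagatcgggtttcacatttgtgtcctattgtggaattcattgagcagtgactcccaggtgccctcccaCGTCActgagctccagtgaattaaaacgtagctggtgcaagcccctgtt
Of the 31 members, 28 had a promoter in that table, with 41 start sites in all, and Gys2, Ppp1r3b and Insr were not matched. CACGTG stood in the 250 bases before 8 of the 41 start sites (19.5%), compared with 6.02% of 32851 promoters of the same length. TGACG stood before 13 of the 41 (31.7%), compared with 17.8% of all. The motifs overlapped in Irs1 and Khk. Pck1 carried its half-site 90 bases, Ppargc1a 49 bases, Pygl 44 bases and Ppp1r3g 40 bases before the start, Ppp1r3c its E-box 104 bases before it, and Pfkfb2 had an E-box at 22 and a half-site at 52 bases. These letters are a description of the windows and do not show that a factor binds there.

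Each level below is the log2 signal of a gene's probe minus the 75th percentile of log2 signal on the same array. A level of 0 is therefore the 75th percentile and a difference of 1 is a doubling, and this is the only scale used. The share of probes that were well above background was 36.3% on the dimmest array and 69.2% on the brightest. The signal at the 75th percentile ranged from 180.2 to 647.5. Before PH it was 180.9 to 344.1 in C and 367.4 to 468.8 in MCD mice. In treated mice before PH it was 185 to 215.4 on chow and 225.9 to 287.6 on the MCD diet. Brightness and diet thus coincide in both diet comparisons before PH, and the part of brightness in the results was not tested. The treated groups after PH overlapped (237.1 to 473.1 on chow and 180.2 to 389.2 on the MCD diet). The C and MCD arrays before PH shared slide 1, both treated groups before PH slide 2, and both treated groups after PH slide 4. C and MCD after PH each had a slide of their own, read on another scanner. The diet comparisons other than that of untreated mice after PH therefore lie within a slide. Each interaction sets 2 such differences, made on different slides, against each other, so that slide and treatment, or slide and time, coincide in it. In every other comparison slide and group cannot be told apart. Sample names end in 2 numbers. The first is 1 on chow and 2 on the MCD diet, and the second is the replicate number. Whether they mark positions on a slide is not stated. If they do, position and diet coincide in every diet comparison. All 10 hepatocyte markers could be tested, and Alb, the serum albumin of hepatocytes, stood at 9.57 to 10.99 on all 32 arrays, in keeping with the label liver. Replicate 1 of C mice after PH lay apart for G6pc, Slc37a4, Gbe1 and Pfkfb3, and without it Pck1, Slc37a4 and Gys2 lost their call with the diet in untreated mice after PH. Pfkfb3 and Gbe1 gained one, so that 6 of the 9 calls were kept. Values of the arrays of a group are given in the order of the replicate numbers 1 to 4. Changes were tested with limma over all 21290 genes and are called where the Benjamini-Hochberg adjusted p is under 0.05.

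On the MCD diet, Ppp1r3c and Pygl were lower and Pfkfb2, the kinase and phosphatase that sets the level of a potent activator of glycolysis, was higher in all 4 diet comparisons. Gys2 was higher in 3 of them. Treated MCD mice also had higher Pck1 and Ppargc1a at both times, and after PH Rgs16 and Ppp1r3g were far higher on the MCD diet both in treated mice (18.0-fold and 24.6-fold) and, between slides, in untreated mice. There Rgs16 was 24.6-fold higher, and Ppp1r3g was called with 1 C array not well above background. Pck1 was also called in untreated mice after PH. In MCD against C mice before PH, 10 of 31 members were called, 5 higher and 5 lower, where 25.8% of all tested genes were called, 12.1% higher and 13.6% lower. With normexp and quantile normalization 4 members were called there, of which Pfkl, Insr and Rgs16 were among the 10, and with the authors' values 3, of which Pfkl and Rgs16 were. Pfkfb2, Tpi1, Slc2a1, Pygl, Gys2, Ugp2 and Ppp1r3c lost their call under both, and Foxo1 gained one. Centring the arrays on their median instead moved the median change of all genes in that comparison from -0.07 to 0.28 and the share of higher genes among all calls from 47.1% to 79.3%. All 10 members then called (26.3% of all genes) were higher, so that Pygl, Insr, Pfkl, Tpi1 and Ppp1r3c kept their direction but not their call. Between M+Fc-GLP-1 and C+Fc-GLP-1 mice, 8 of 31 members were called before PH (6 higher and 2 lower), compared with 10.6% of all genes (5.33% higher, 5.29% lower). Centring on the median moved the median of all genes there from 0.03 to -0.24 and the share of higher calls from 50.2% to 22.2%. After PH the same contrast held 11 of 31 members (9 higher and 2 lower), compared with 13.1% of all genes (6.47% higher, 6.59% lower). The median change over the 31 members was 0.13, 0.24 and 0.39 in these comparisons, beside -0.07, 0.03 and -0.000967 over all tested genes. Gys2, Pfkfb2, Pygl, Ppp1r3c and Slc2a1 were called in the first 2, and Pfkfb2, Pygl and Ppp1r3c in all 3. Fitted to the 8 arrays of each slide alone, the comparisons called 7, 4 and 9 members, where 23.4%, 6.6% and 9.25% of all genes were called. In MCD against C mice before PH, Pfkl, Tpi1, Slc2a1 and Insr lost their call in that fit and G6pc gained one. In treated mice before PH, Pck1 lost its call in that fit, with normexp, with the authors' values and with centring on the median. Pygl lost it in the first 3 of these, Slc2a1 and Irs2 in the first and the last, and Ppargc1a in the first. After PH, Slc2a2 lost its call with normexp and with the authors' values, and Ppargc1a with normexp. Pfkfb3, Pygl and Ppp1r3b lost it with centring on the median, and Slc37a4 and Ppp1r3b in the fit of 1 slide. Without a filter on dim probes, Slc2a1 and Pygl before PH and Slc2a2, Pygl and Ppp1r3b after PH lost it as well.

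**Figure D1:**
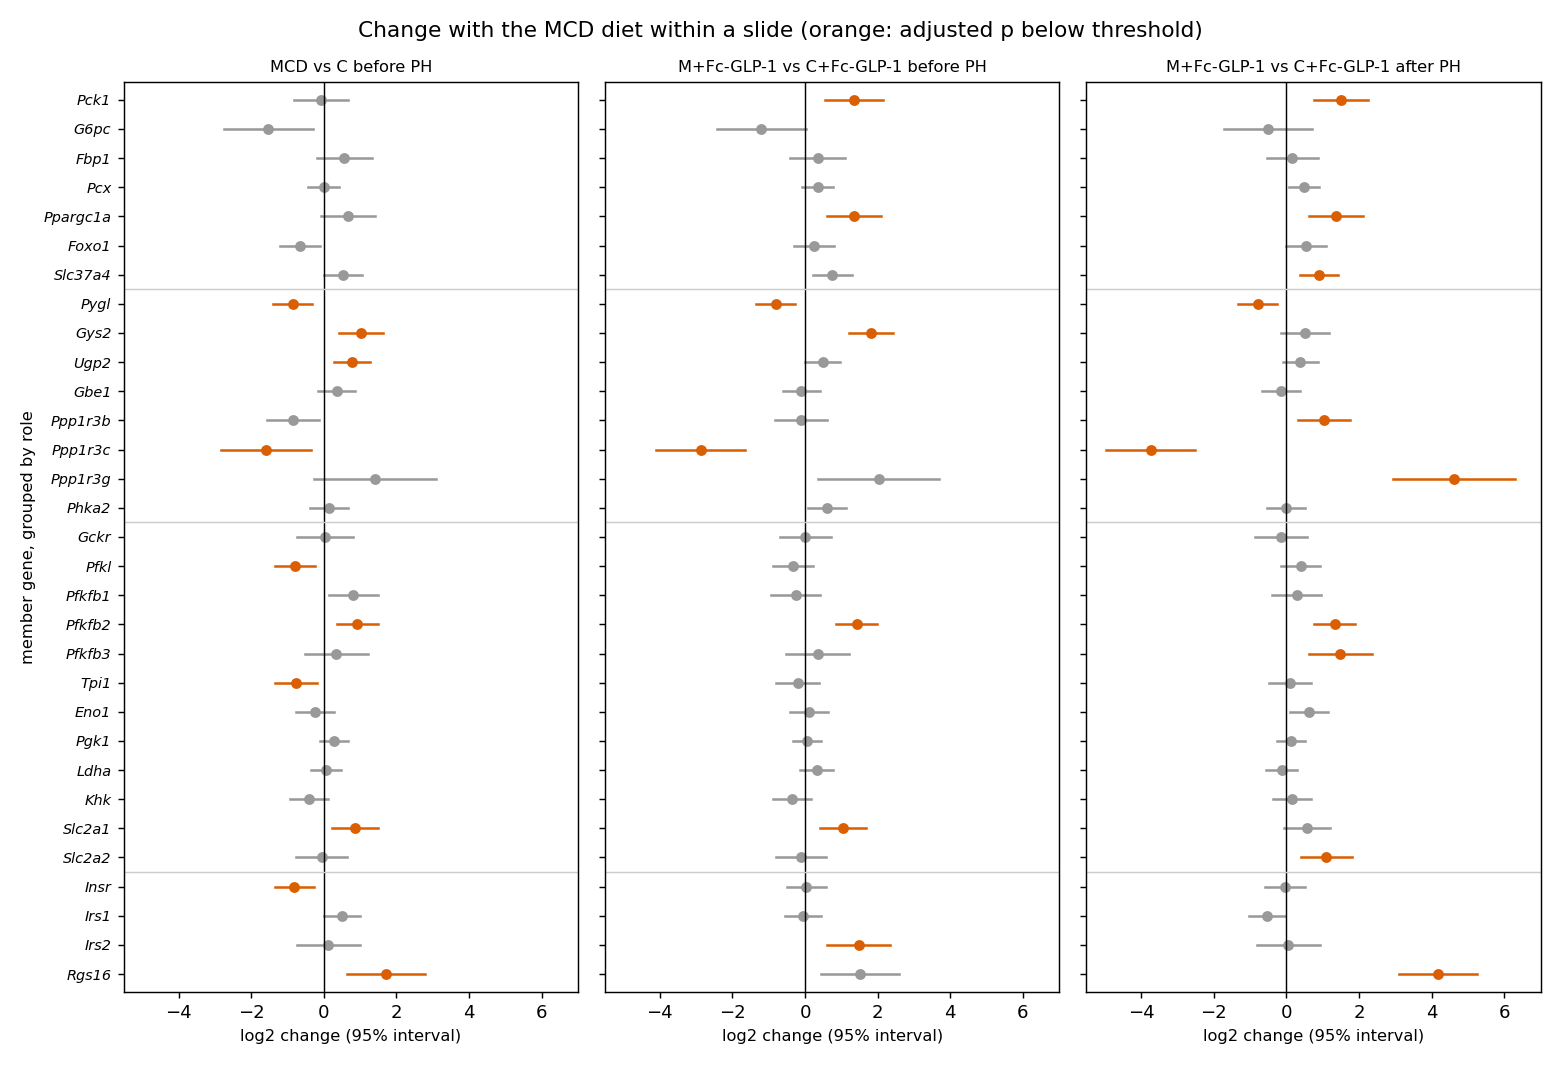
Change of each of the 31 members with the MCD diet in the 3 comparisons that lie within a slide, as log2 change on the horizontal axis with its 95% interval, genes grouped by role on the vertical axis. Orange marks the 10, 8 and 11 members called; Ppp1r3c is at the left and Ppp1r3g and Rgs16 at the right of the plot after PH.

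**Figure D2:**
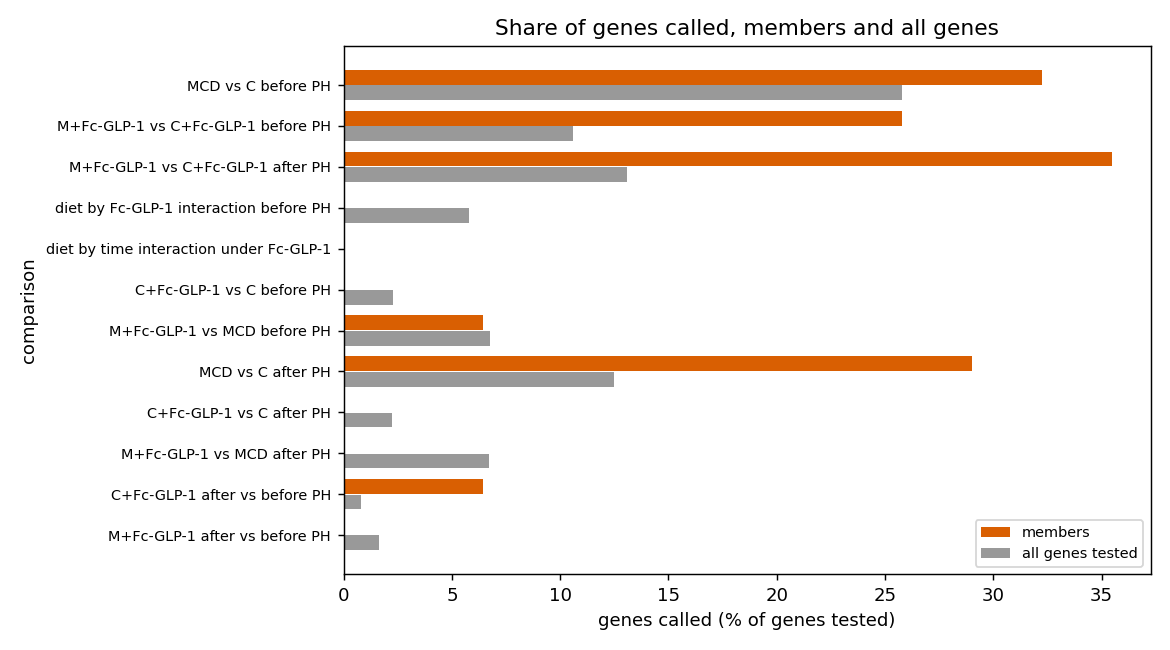
Percent of the 31 members (orange) and of all 21290 tested genes (grey) called in each of the 12 comparisons. Members were called in 6 comparisons, with the longest member bars in the diet comparisons.

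Ppp1r3c encodes a subunit, also named protein targeting to glycogen, that brings phosphatase to the glycogen particle (chr19:36731731-36736604 on GRCm38.p6). Its levels were 2.87, 3.74, 4.07 and 3.83 in C and 3.05, 1.17, 2.60 and 1.33 in MCD mice before PH. In treated mice before PH they were 3.30, 3.87, 2.81 and 4.11 on chow and 0.54, 2.16, -0.38 and 0.26 on the MCD diet. The untreated groups overlapped in 1 array of each, while the treated groups were fully apart. Ppp1r3c fell by 1.59 in untreated mice (standard error 0.60, adjusted p = 0.0499). It fell by 2.88 in treated mice, which is 7.35-fold (standard error 0.60, adjusted p = 0.00186). After PH its levels were 2.63, 4.42, 4.31 and 2.80 in C+Fc-GLP-1 mice and -1.29, 0.17, 0.56 and -0.22 in M+Fc-GLP-1 mice. Every M+Fc-GLP-1 array was more than 2 below every chow array, and the gene fell by 3.74, or 13.3-fold (standard error 0.60, adjusted p = 7.59e-05). After PH, untreated mice had 0.42, 3.53, 2.84 and 3.16 on chow and 0.54, 0.59, -0.65 and 0.84 on the MCD diet, a fall of 2.16 (standard error 0.60, adjusted p = 0.0167) in which 1 low chow array overlapped the MCD arrays. The calls in untreated mice were lost before PH without each of the 8 arrays other than C replicate 1 and MCD replicate 1 (adjusted p up to 0.149) and after PH without each of C replicate 2, C replicate 3, C replicate 4 and MCD replicate 3 (adjusted p up to 0.0761). Those in treated mice were kept without any 1 of the arrays compared. In bulk tissue, fewer cells of a type and less RNA per cell cannot be told apart, here and in every result that follows.

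Pygl encodes liver glycogen phosphorylase, which releases glucose from glycogen (chr12:70190815-70227683). It was 6.80, 7.87, 7.89 and 7.44 in C and 6.80, 6.54, 6.63 and 6.65 in MCD mice before PH. In treated mice before PH it was 7.52, 8.09, 7.36 and 7.76 on chow and 6.64, 6.65, 7.12 and 7.09 on the MCD diet. Both MCD groups were below their chow group, the nearest untreated arrays both rounding to 6.80. Pygl fell by 0.85 (standard error 0.26, adjusted p = 0.0179) and by 0.81 (adjusted p = 0.0456). After PH the levels were 7.05, 7.38, 7.35 and 7.48 in C+Fc-GLP-1 mice and 6.77, 6.42, 6.57 and 6.33 in M+Fc-GLP-1 mice. The groups were again apart, with a fall of 0.79 (adjusted p = 0.0435). The untreated groups after PH had 6.17, 7.33, 7.65 and 7.15 on chow and 6.57, 6.11, 6.09 and 5.76 on the MCD diet, a fall of 0.95 (adjusted p = 0.0165), with chow replicate 1 inside the MCD range. The falls of Pygl were between 1.73-fold and 1.93-fold and close to the threshold. The call was lost in untreated mice before PH without C replicate 2 (adjusted p = 0.059) and C replicate 3 (adjusted p = 0.0634), and after PH without each of C replicate 2, C replicate 3 and MCD replicate 4 (adjusted p up to 0.0857). In treated mice it was lost before PH without each of the 8 arrays other than C+Fc-GLP-1 replicate 3 (adjusted p up to 0.153). After PH it was lost without each of the 8 arrays other than C+Fc-GLP-1 replicate 1 and M+Fc-GLP-1 replicate 1 (adjusted p up to 0.104).

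Gys2 encodes the liver glycogen synthase (chr6:142422612-142473130), and its direction was opposite to that of Pygl. Its levels were 5.53, 6.63, 6.10 and 6.09 in C and 7.11, 6.84, 7.37 and 7.11 in MCD mice before PH. They were 5.59, 5.62, 5.38 and 5.98 in C+Fc-GLP-1 mice and 7.33, 7.69, 7.18 and 7.64 in M+Fc-GLP-1 mice. All 8 MCD-fed arrays were above all 8 chow arrays before PH. The rise was 1.02 in untreated mice (standard error 0.30, adjusted p = 0.0127) and 1.82 in treated mice, a 3.53-fold difference (standard error 0.30, adjusted p = 0.000145). A further Gys2 probe gave a change of 1.16 in both (adjusted p = 0.0302 and 0.0561). After PH, treated mice had 5.44, 6.03, 6.20 and 5.49 on chow and, on 3 arrays because 1 spot was an outlier, 6.72, 6.56 and 5.63 on the MCD diet, which overlapped (log2 change 0.51, standard error 0.32, adjusted p = 0.343). Without treatment, levels after PH were 4.63, 5.10, 6.33 and 5.51 on chow and 6.63, 6.43, 6.15 and 6.87 on the MCD diet, a rise of 1.13 (adjusted p = 0.0126) with 1 chow array inside the MCD range. The calls in untreated mice were lost before PH without C replicate 1 (adjusted p = 0.0582) and after PH without C replicate 1 (adjusted p = 0.0502).

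Ugp2 encodes the pyrophosphorylase that makes UDP-glucose, the donor for glycogen synthesis (chr11:21321126-21371267). It was 5.79, 6.12, 5.77 and 5.67 in C and 6.31, 6.6, 6.89 and 6.68 in MCD mice before PH. The MCD arrays were all higher, a rise of 0.78 (standard error 0.24, adjusted p = 0.0168) that was lost without MCD replicate 3 (adjusted p = 0.0567). Ugp2 has a further, dimmer probe, and with the mean over a gene's probes this call was lost as well. Levels in treated mice before PH were 6.18, 5.89, 6.20 and 6.13 on chow and 6.13, 6.92, 6.91 and 6.39 on the MCD diet, and after PH 5.24, 5.98, 5.91 and 5.6 on chow and 6.68, 5.77, 5.91 and 5.93 on the MCD diet. These treated groups overlapped at both times (adjusted p = 0.2 and 0.325). Untreated mice after PH had 4.54, 5.22, 5.72 and 5.19 on chow and 5.99, 6.04, 6.08 and 6.25 on the MCD diet, apart by 0.92 (adjusted p = 0.0106).

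Ppp1r3g encodes a further glycogen-targeting subunit of protein phosphatase 1, known in mouse liver for changing between fasting and feeding (chr13:35958824-35970388), and its arrays spread widely within groups. Its levels were 1.26, 2.64, 1.87 and 1.19 in C and 1.76, 4.44, 2.01 and 4.4 in MCD mice before PH. Treated mice before PH had 2.63, 1.87, 3.64 and 0.45 on chow and 2.47, 4.47, 6.4 and 3.36 on the MCD diet. These groups overlapped, and neither difference passed the threshold (log2 change 1.41, adjusted p = 0.206, and 2.03, adjusted p = 0.111). After PH the levels were -1.72, -2.98, -1.22 and -3.50 in C+Fc-GLP-1 mice and 4.02, 2.65, 1.17 and 1.22 in M+Fc-GLP-1 mice. All chow arrays were below -1 and all M+Fc-GLP-1 arrays above 1, a rise of 4.62 (standard error 0.82, adjusted p = 0.000235). Without treatment the split after PH was alike, with -4.08, -3.05, -1.17 and -1.14 on chow and 2.83, 2.06, 2.19 and 2.58 on the MCD diet (log2 change 4.78, standard error 0.82, adjusted p = 0.000199). The probe was well above background on 3 of the 4 C arrays there, so that 1 of these levels lies near background. Chow-fed treated mice fell by 4.50 from before to after PH (standard error 0.82, adjusted p = 0.0119), or 22.6-fold. All 3 of these calls were kept without any 1 of the arrays compared.

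Ppp1r3b, the major glycogen-targeting subunit of the liver, was 5.85, 7.08, 6.17 and 6.57 in C+Fc-GLP-1 mice and 8.23, 7.79, 6.88 and 6.97 in M+Fc-GLP-1 mice after PH. It rose by 1.05 (standard error 0.35, adjusted p = 0.044) with overlapping groups, a call lost without each of the 8 arrays other than C+Fc-GLP-1 replicate 2, M+Fc-GLP-1 replicate 3 and M+Fc-GLP-1 replicate 4 (adjusted p up to 0.176). Before PH it was 6.28, 6.15, 6.76 and 6.51 in MCD and 7.31, 7.70, 8.25 and 6.98 in M+Fc-GLP-1 mice. Every treated array was higher, by 1.13 on average (adjusted p = 0.0453), a call between slides that was lost without each of the 8 arrays other than M+Fc-GLP-1 replicate 4 (adjusted p up to 0.157). Chow arrays before PH had 8.23, 7.19, 6.72 and 6.92 untreated and 8.26, 7.39, 7.36 and 7.72 treated. Both MCD-fed groups overlapped their chow group there, with the lowest and highest array below those on chow. The diet thus brought no rise of Ppp1r3b before PH, and neither difference was called. Without treatment, chow arrays after PH had 5.69, 6.32, 6.69 and 5.97. Their MCD-fed counterparts had 6.89, 7.58, 6.86 and 6.76, all higher but not called. Gbe1, the branching enzyme, and Phka2, a subunit of phosphorylase kinase, were called in no comparison, with group means from 4.28 to 5.64 and from 3.74 to 4.4. Of the 8 glycogen members, 4 were called in MCD against C mice before PH (2 higher, 2 lower), 3 in treated mice before PH (1 higher, 2 lower), 4 in treated mice after PH (2 higher, 2 lower) and 5 in untreated mice after PH (3 higher, 2 lower). The shares over all genes in these comparisons were 25.8%, 10.6%, 13.1% and 12.5%.

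Rgs16 (chr1:153740353-153745468) had the lowest p of any member. Its levels were 5.06, 6.39, 4.16 and 4.23 in C and 7.11, 6.68, 6.83 and 6.08 in MCD mice before PH, overlapping in chow replicate 2. Treated mice before PH had 5.91, 4.63, 6.28 and 6.42 on chow and 7.49, 7.32, 7.48 and 6.97 on the MCD diet, without overlap. Rgs16 rose by 1.71 in untreated mice (standard error 0.53, adjusted p = 0.0173), a call lost without each of C replicate 3, C replicate 4 and MCD replicate 1 (adjusted p up to 0.0627). In treated mice before PH the difference of 1.51 missed the threshold (standard error 0.53, adjusted p = 0.0641). It was called with the replicate block over all groups and in the fit of only the groups compared. After PH the levels were 2.39, 0.52, 1.71 and 1.52 in C+Fc-GLP-1 mice and 6.45, 6.04, 5.66 and 4.69 in M+Fc-GLP-1 mice. Every MCD-fed array was more than 2 above every chow array there, and the rise was 4.17 (standard error 0.53, adjusted p = 2.76e-06). After PH, untreated mice had 0.39, 0.05, -0.23 and -1.54 on chow and 5.52, 4.87, 3.54 and 3.23 on the MCD diet, which was 24.6-fold higher (log2 change 4.62, standard error 0.53, adjusted p = 8.22e-07). In C+Fc-GLP-1 mice Rgs16 fell by 4.27 from before to after PH (standard error 0.53, adjusted p = 0.000141). The calls after PH and over time were kept without any 1 of the arrays compared and under every other setting tried.

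**Figure D3:**
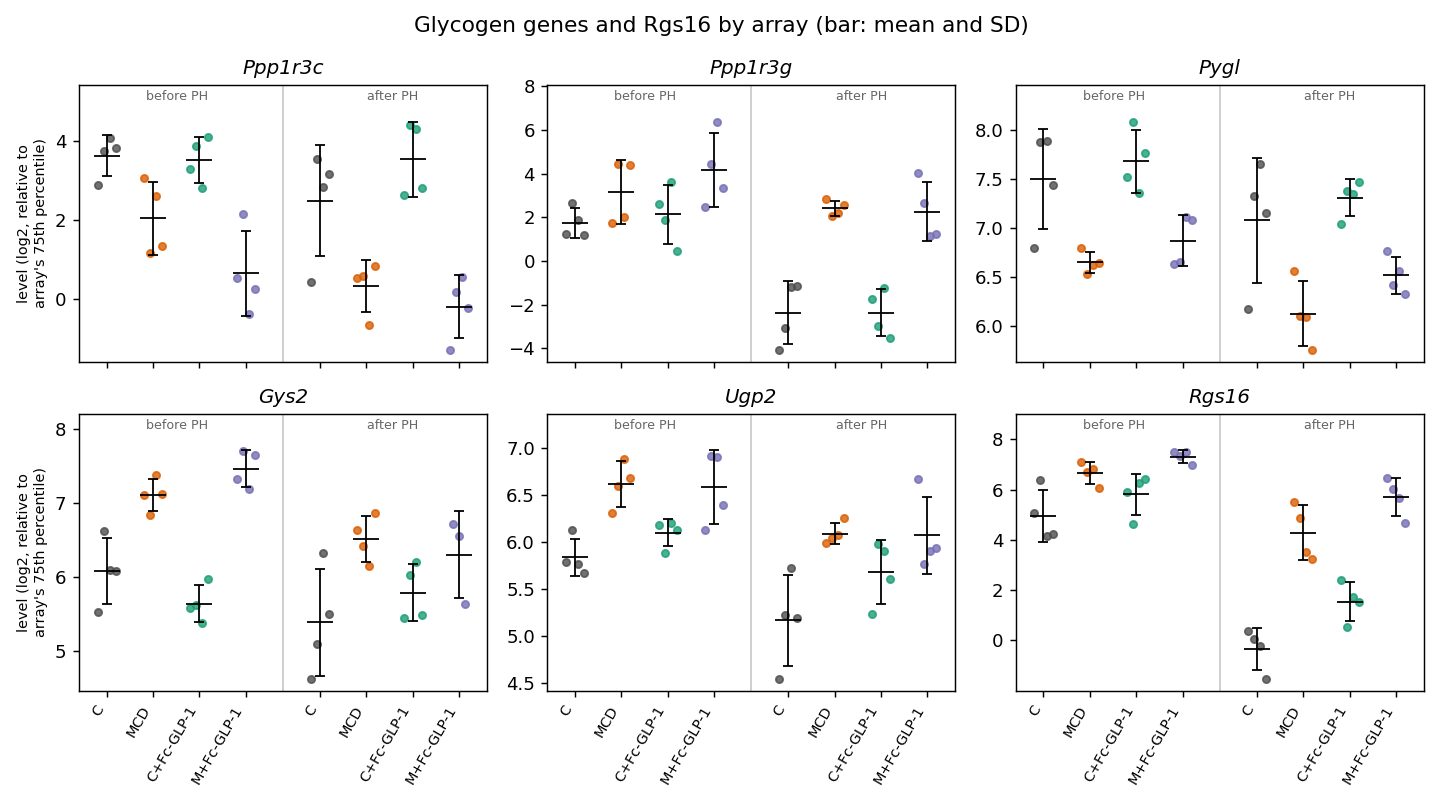
Levels of 5 glycogen genes and Rgs16 on each array (points), by group on the horizontal axis, as log2 relative to the 75th percentile of the array, with the mean and SD of each group. Ppp1r3c and Pygl are lower and Gys2 higher on the MCD diet before PH, and after PH the chow groups of Ppp1r3g lie below -1 while the MCD-fed groups lie above 1.

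Among the 7 members of gluconeogenesis and its regulators, 0 were called in MCD against C mice before PH (limma, 3 at an unadjusted p under 0.05), 2 in treated mice before PH and 3 in treated mice after PH, all 5 of these calls higher on the MCD diet. Of all genes, 25.8%, 10.6% and 13.1% were called in these comparisons. In untreated mice after PH 2 of the 7 were called higher and 0 lower, where 12.5% of all genes were called. Pck1, the phosphoenolpyruvate carboxykinase that starts the path from oxaloacetate (chr2:173153073-173159274), was 9.73, 8.51, 7.78 and 9.07 in C and 8.64, 8.58, 8.49 and 9.07 in MCD mice before PH. In treated mice before PH it was 9.36, 7.6 and 8.02 on chow, on 3 arrays because 1 spot was an outlier, and 9.88, 9.63, 9.64 and 9.55 on the MCD diet. The untreated groups overlapped (log2 change -0.08, adjusted p = 0.894), whereas every treated MCD array was above every treated chow array. The rise in treated mice was 1.36 (standard error 0.39, adjusted p = 0.0229), lost without each of C+Fc-GLP-1 replicate 3, C+Fc-GLP-1 replicate 4 and M+Fc-GLP-1 replicate 1 (adjusted p up to 0.157) and under the other settings named above. After PH the levels were 7.35, 8.62, 6.95 and 7.59 in C+Fc-GLP-1 mice and 9.21, 9.30, 8.91 and 9.11 in M+Fc-GLP-1 mice. These groups were apart, with a rise of 1.5 or 2.83-fold (standard error 0.36, adjusted p = 0.00541) that was kept without any 1 of the arrays compared. The untreated groups after PH had 7.62, 7.34, 8.28 and 8.18 on chow and 8.96, 9.15, 9.06 and 8.70 on the MCD diet, also apart (log2 change 1.11, adjusted p = 0.0399), a call lost without each of the 8 arrays other than C replicate 3 and MCD replicate 4 (adjusted p up to 0.136).

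Ppargc1a encodes PGC-1 alpha, a coactivator of fasting and oxidative genes (chr5:51454249-52115853). It was 2.23, 1.51, 1.02 and 0.69 in C and 1.75, 1.92, 1.92 and 2.56 in MCD mice before PH, which overlapped (log2 change 0.67, adjusted p = 0.172). Treated mice before PH had 3.04, 1.86, 1.64 and 2.80 on chow and 3.59, 3.27, 4.69 and 3.14 on the MCD diet. The treated MCD arrays were all higher, by 1.34 (standard error 0.36, adjusted p = 0.0153), a call lost without each of C+Fc-GLP-1 replicate 2, C+Fc-GLP-1 replicate 3 and M+Fc-GLP-1 replicate 3 (adjusted p up to 0.0841). After PH the levels were 1.14, 0.77, 1.22 and 1.73 on chow and 2.72, 3.23, 2.46 and 1.91 on the MCD diet, apart by 1.36 (adjusted p = 0.0112), a call lost without M+Fc-GLP-1 replicate 2 (adjusted p = 0.0552). A dimmer Ppargc1a probe gave rises of 1.62 and 1.82 in these comparisons (adjusted p = 0.0016 and 0.000357). M+Fc-GLP-1 mice were also 3.11-fold above MCD mice before PH, without overlap (log2 change 1.64, adjusted p = 0.00799), between slides, and this call was kept without any 1 of the arrays compared. Without treatment, levels after PH were 1.53, 0.99, 1.86 and 1.66 on chow and 2.75, 2.20, 2.76 and 2.55 on the MCD diet (log2 change 1.06, adjusted p = 0.0526).

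Slc37a4 encodes the transporter that carries glucose 6-phosphate into the endoplasmic reticulum (chr9:44396946-44402966). It was 5.37, 6.77, 5.67 and 5.73 in C, 6.13, 6.53, 6.36 and 6.64 in MCD, 5.87, 5.79, 5.73 and 6.11 in C+Fc-GLP-1 mice and 6.61, 6.59, 6.50 and 6.81 in M+Fc-GLP-1 mice before PH. Neither diet difference passed the threshold before PH (0.53, adjusted p = 0.129, and 0.75, adjusted p = 0.0576), although the treated groups did not overlap. After PH it was 4.89, 5.61, 5.23 and 5.76 in C+Fc-GLP-1 mice and 6.64, 5.90, 6.57 and 6.0 in M+Fc-GLP-1 mice, a rise of 0.90 without overlap (standard error 0.26, adjusted p = 0.018) lost without each of C+Fc-GLP-1 replicate 1, C+Fc-GLP-1 replicate 3, M+Fc-GLP-1 replicate 1 and M+Fc-GLP-1 replicate 3 (adjusted p up to 0.077). Untreated mice after PH had 4.25, 5.02, 5.05 and 5.07 on chow and 6.02, 5.47, 5.71 and 5.95 on the MCD diet, a rise of 0.94 (adjusted p = 0.0155) lost without C replicate 1 (adjusted p = 0.0594) and MCD replicate 1 (adjusted p = 0.0513).

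G6pc, the catalytic subunit of glucose 6-phosphatase, which acts on the substrate delivered by Slc37a4, was called in no comparison. Before PH it was 7.35, 7.32, 8.99 and 9.05 in C and 6.47, 7.18, 6.61 and 6.33 in MCD mice, groups that did not overlap, with a log2 change of -1.53 whose adjusted p of 0.0577 missed the threshold. Under other settings it gained a call there. These were the fit of only the groups compared, the percentile over probes well above background on all arrays, and the fits without C replicate 1 or C replicate 2. In treated mice the change was -1.20 before PH (adjusted p = 0.206) and -0.50 after PH (adjusted p = 0.668). G6pc in C mice after PH was 4.49, 7.92, 7.90 and 7.76, replicate 1 being far below the others. Fbp1, fructose bisphosphatase, Pcx, pyruvate carboxylase, and Foxo1, the insulin-restrained transcription factor, were called in no comparison, with diet changes within slides from 0.17 to 0.56, from -0.01 to 0.48 and from -0.64 to 0.54. The Foxo1 arrays of C and MCD mice before PH did not overlap (adjusted p = 0.0773).

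Of the 12 members of glycolysis, fructose and glucose entry, 4 were called in MCD against C mice before PH (2 higher, 2 lower), 2 in treated mice before PH and 3 in treated mice after PH, the latter all higher. The shares over all genes were 25.8%, 10.6% and 13.1%, so that with 12 members these counts are not set apart from the background. In untreated mice after PH 1 of the 12 was called higher and 0 lower, where 12.5% of all genes were called. Pfkfb2 (chr1:130689043-130729253) was called in each of the 4 diet comparisons. Its levels were -0.59, 0.63, -0.34 and -0.13 in C and 0.64, 1.30, 0.65 and 0.64 in MCD mice before PH. They were 0.14, -0.17, -0.64 and -1.45 in C+Fc-GLP-1 mice and 1.19, 0.71, 0.77 and 0.90 in M+Fc-GLP-1 mice. The rise was 0.92 in untreated mice (standard error 0.28, adjusted p = 0.0149), lost without C replicate 1 (adjusted p = 0.0644) and MCD replicate 2 (adjusted p = 0.0639), and 1.42 in treated mice (adjusted p = 0.000923). After PH the levels were -0.76, -0.29, -0.76 and -0.26 on chow and 0.48, 0.84, 1.00 and 0.97 on the MCD diet in treated mice, 1.34 higher on the MCD diet (adjusted p = 0.00126). After PH, untreated mice had -0.28, -0.82, -0.49 and -0.30 on chow and 0.47, 0.37, 0.67 and 0.92 on the MCD diet, 1.08 higher on the MCD diet (adjusted p = 0.0096). No chow array reached an MCD-fed array within any of these 4 comparisons, and the calls other than that in untreated mice before PH were kept without any 1 of the arrays compared. With normexp and with the authors' values, however, both calls in untreated mice were lost.

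Pfkfb3, a related kinase that favours glycolysis, was 1.85, 1.34, 2.59 and 1.93 in C, 2.25, 2.52, 2.57 and 1.76 in MCD, 1.84, 2.62, 2.17 and 1.93 in C+Fc-GLP-1 mice and 2.19, 2.85, 2.72 and 2.20 in M+Fc-GLP-1 mice before PH. These groups overlapped. After PH it was 1.24, 1.83, 0.36 and -0.27 in C+Fc-GLP-1 mice and 2.66, 2.32, 2.15 and 1.98 in M+Fc-GLP-1 mice. It was higher on every MCD array, by 1.49 on average (standard error 0.42, adjusted p = 0.0173), a call lost without each of C+Fc-GLP-1 replicate 3, C+Fc-GLP-1 replicate 4 and M+Fc-GLP-1 replicate 1 (adjusted p up to 0.0924). In C mice after PH it was 2.62, 0.53, 0.11 and 0.09, replicate 1 standing above the other 3, and in MCD mice 1.53, 1.87, 1.95 and 2.32 (adjusted p = 0.0962).

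**Figure D4:**
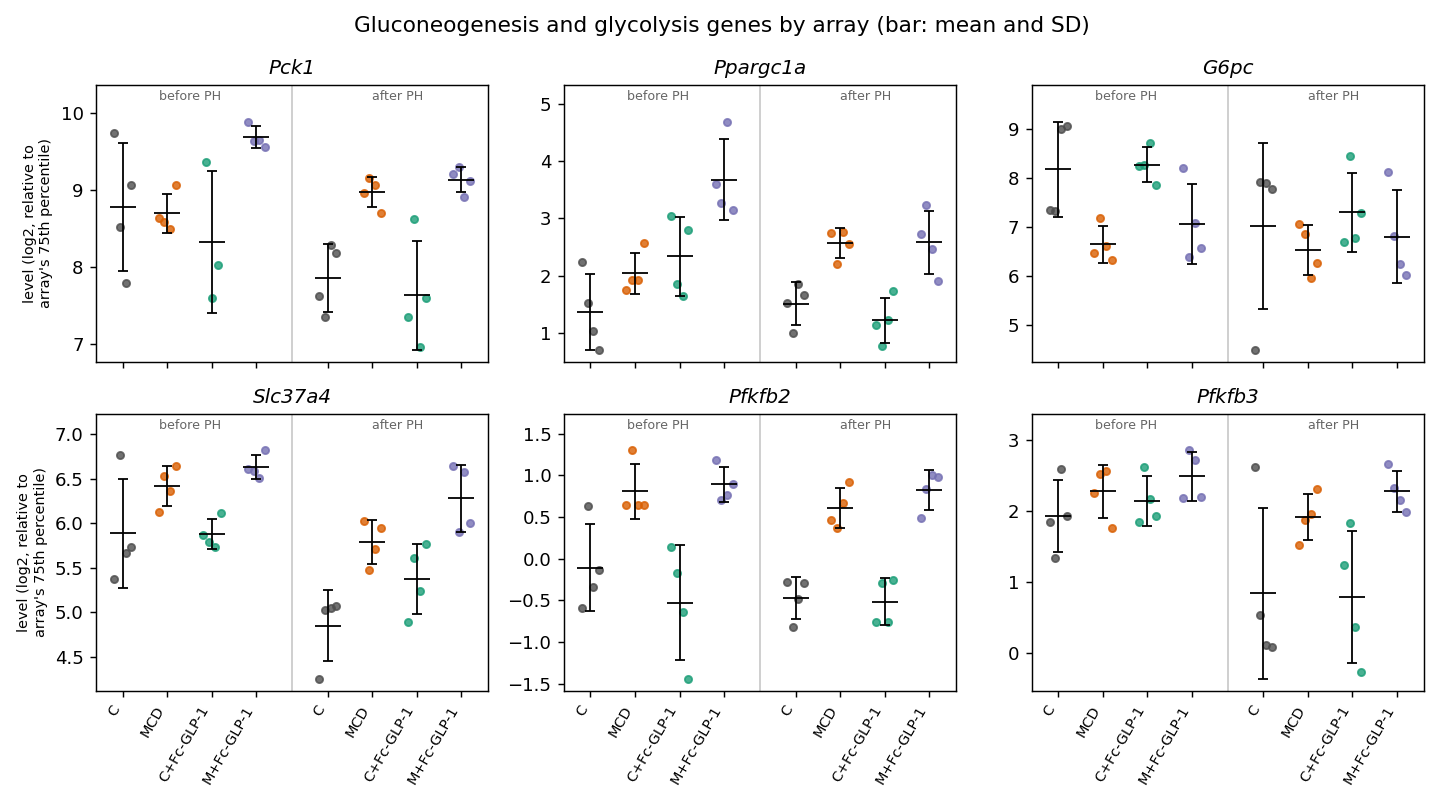
Levels of 4 genes of gluconeogenesis and 2 of glycolysis on each array (points), by group on the horizontal axis, as log2 relative to the 75th percentile of the array, with the mean and SD of each group. Pck1 and Ppargc1a are higher in M+Fc-GLP-1 than in C+Fc-GLP-1 mice at both times, and the MCD-fed arrays of Pfkfb2 lie above their chow arrays throughout.

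Slc2a1, the transporter GLUT1, scarce in hepatocytes, was 1.90, 1.95, 1.20 and 1.01 in C and 2.23, 1.98, 2.76 and 2.49 in MCD mice before PH. The groups were just apart, with a rise of 0.85 (adjusted p = 0.0423) lost without each of the 8 arrays other than C replicate 1, C replicate 2 and MCD replicate 2 (adjusted p up to 0.136). In treated mice before PH it was 1.70, 0.89, 1.15 and 2.06 on chow and 2.92, 1.87, 2.67 and 2.53 on the MCD diet. The groups overlapped, with a rise of 1.05 (adjusted p = 0.0268) lost without each of the 8 arrays other than C+Fc-GLP-1 replicate 1, C+Fc-GLP-1 replicate 4 and M+Fc-GLP-1 replicate 2 (adjusted p up to 0.11). After PH it was 1.77, 2.33, 1.83 and 1.56 on chow and 2.47, 2.28, 2.16 and 2.86 on the MCD diet in treated mice and 3.26, 2.60, 1.93 and 1.65 on chow and 2.70, 2.78, 2.53 and 2.56 on the MCD diet in untreated mice, overlapping and not called. Slc2a2, the GLUT2 of hepatocytes, was 5.54, 5.79, 5.47 and 4.59 in C, 5.12, 4.99, 5.43 and 5.61 in MCD, 5.22, 5.28, 4.84 and 5.61 in C+Fc-GLP-1 mice and 4.39, 6.11, 4.99 and 5.03 in M+Fc-GLP-1 mice before PH, with overlap throughout. After PH it was 3.38, 4.69, 4.67 and 4.39 in C+Fc-GLP-1 mice and 5.45, 5.28, 5.40 and 5.41 in M+Fc-GLP-1 mice. The latter were all higher (log2 change 1.10, standard error 0.34, adjusted p = 0.0299), a call lost without each of the 8 arrays other than C+Fc-GLP-1 replicate 2 and C+Fc-GLP-1 replicate 3 (adjusted p up to 0.137). In untreated mice after PH Slc2a2 was 4.02, 4.37, 5.35 and 4.92 on chow and 4.49, 3.88, 4.95 and 4.94 on the MCD diet.

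Of the glycolytic chain itself, Tpi1 and Pfkl were each called in 1 comparison. Tpi1, triosephosphate isomerase, was 8.79, 7.77, 7.66 and 8.30 in C and 7.38, 7.51, 7.54 and 7.01 in MCD mice before PH. It fell by 0.77 without overlap (standard error 0.29, adjusted p = 0.0477) that was lost without each of the 8 arrays other than C replicate 2 and C replicate 3 (adjusted p up to 0.188), and its dimmer probe changed by -0.25 (adjusted p = 0.493). In treated mice Tpi1 was 7.89, 8.47, 8.11 and 7.41 on chow and 7.83, 8.0, 7.54 and 7.70 on the MCD diet before PH and 7.14, 7.72, 7.87 and 7.58 on chow and 7.98, 7.76, 7.96 and 7.04 on the MCD diet after PH, with overlap. The untreated groups after PH had 7.24, 6.81, 7.37 and 7.30 on chow and 6.67, 6.26, 7.15 and 7.65 on the MCD diet. Pfkl, the liver phosphofructokinase, was 3.17, 2.58, 2.34 and 1.62 in C and 2.05, 1.89, 1.23 and 1.35 in MCD mice before PH. It fell by 0.80 with overlap (adjusted p = 0.0268) lost without each of C replicate 1, C replicate 2, MCD replicate 3 and MCD replicate 4 (adjusted p up to 0.137). Gckr, Pfkfb1, the liver bifunctional kinase, Eno1, Pgk1 and Ldha of lower glycolysis, and Khk, which phosphorylates fructose, were called in no comparison, and their diet changes within slides lay between -0.40 and 0.81. The Pgk1 probe used lies on chromosome 3 in the array's own annotation while Pgk1 lies on chromosome X, so a processed copy could share its signal. A Pgk1 probe on X gave changes of 0.36, 0.14 and 0.31, none of them called. Its sequence overlaps most of that of the probe used, so it cannot settle whether a copy is read. Spots that were outliers left 3 arrays in the MCD group before PH for Gckr and Fbp1, in C+Fc-GLP-1 before PH for Fbp1 and in M+Fc-GLP-1 before PH for Ldha.

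Of the insulin signalling genes, Insr and Irs2 were each called in 1 comparison. Insr, the insulin receptor (chr8:3150922-3279649), was 1.89, 1.70, 1.74 and 1.86 in C and 0.10, 0.99, 1.52 and 1.33 in MCD mice before PH. It was lower on every MCD array, by 0.81 on average (standard error 0.26, adjusted p = 0.0241), a call lost without C replicate 1 (adjusted p = 0.0552) and MCD replicate 1 (adjusted p = 0.14). Its further probes disagreed, with changes of -0.79 (adjusted p = 0.0626) and 0.40 (adjusted p = 0.33). Treated mice had Insr levels of 1.97, 1.35, 1.79 and 1.79 on chow and 1.20, 1.88, 1.58 and 2.40 on the MCD diet before PH, and 1.39, 1.01, 1.70 and 1.83 on chow and 1.66, 1.66, 1.53 and 0.94 on the MCD diet after PH, with overlap at both times. Without treatment, levels after PH were 1.63, 1.45, 1.75 and 1.92 on chow and 1.20, 1.06, 1.48 and 1.36 on the MCD diet (adjusted p = 0.348). Irs2, a substrate of the receptor that falls after feeding, was 2.50, 3.45, 4.58 and 3.74 in C+Fc-GLP-1 mice and 5.46, 3.96, 6.10 and 4.65 in M+Fc-GLP-1 mice before PH. It rose by 1.47 with overlap (standard error 0.42, adjusted p = 0.0223), lost without each of C+Fc-GLP-1 replicate 1, C+Fc-GLP-1 replicate 2, M+Fc-GLP-1 replicate 1 and M+Fc-GLP-1 replicate 3 (adjusted p up to 0.108). In untreated mice before PH its change was 0.13 (adjusted p = 0.855) and in treated mice after PH 0.05 (adjusted p = 0.964). Irs1 was called in no comparison, with group means from 2.22 to 2.90.

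Whether the diet effect differed with treatment or with time was asked of each member by an interaction. With limma, 0 of 31 members passed for diet by Fc-GLP-1 before PH, where 5.81% of all genes were called (2.88% higher, 2.93% lower), and 5 had an unadjusted p under 0.05, with Pck1 at the lowest (difference of changes 1.44, 95% interval 0.35 to 2.52, adjusted p = 0.1). For diet by time under Fc-GLP-1, 0 of 31 members passed, where 0.0892% of all genes did (0.0470% higher, 0.0423% lower), and 6 had an unadjusted p under 0.05. Rgs16 was first among these, its diet effect being 2.67 larger after PH (95% interval 1.14 to 4.19, adjusted p = 0.188). Gys2 was next, with a diet effect smaller by 1.31 after PH (95% interval -2.21 to -0.41, adjusted p = 0.294), and Ppp1r3g had 2.59 (0.23 to 4.95, adjusted p = 0.471). For Ppp1r3c the intervals were -3.02 to 0.45 with treatment and -2.59 to 0.88 with time. Were arrays that share a number pairs of the same animals, a replicate block within each condition would call Rgs16 for diet by time. That block was chosen after seeing the data, and 0.136% of all genes were called with it. With arrays centred on the median, 2 members passed for diet by Fc-GLP-1, in a setting that moved the share of higher calls over all genes from 49.6% to 4.6%.

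The effect of Fc-GLP-1 could be read only between slides. On chow, 0 of 31 members were called by limma before PH, with 5 at an unadjusted p under 0.05, where 2.28% of all genes were called (1.19% higher, 1.09% lower), and 0 after PH, with 3 at an unadjusted p under 0.05, where 2.24% were called (1.34% higher, 0.897% lower). On the MCD diet, Ppargc1a and Ppp1r3b were higher before PH, 2 of 31 members, where 6.74% of all genes were called (3.75% higher, 3.00% lower). Beside them, 5 of 10 macrophage markers were called lower (summed level 7.28 to 8.78 in MCD and 5.98 to 7.23 in M+Fc-GLP-1 mice). Of 8 neutrophil markers 2 were called lower and 1 higher, and 2 of 8 stellate and fibroblast and 1 of 9 lymphocyte markers were called lower, with 0 of 10 hepatocyte markers called (limma, 1 at an unadjusted p under 0.05). Of 10 fasting and PPAR alpha genes 2 were called higher, of 10 lipogenic genes that respond to feeding 2 lower and of 15 clock genes 1 higher. The part of these lists in the result was not tested. After PH 0 of 31 were called in M+Fc-GLP-1 against MCD mice by limma, with 6 at an unadjusted p under 0.05, where 6.70% were called (3.98% higher, 2.72% lower). The change of Pck1 with treatment on the MCD diet before PH was 0.98 (95% interval 0.25 to 1.72, adjusted p = 0.0926), with all treated arrays higher. On chow after PH, Rgs16 was higher on all treated arrays by 1.87 (95% interval 0.79 to 2.95, adjusted p = 0.0563). The intervals of these genes leave room for changes of over 2-fold, and a missed threshold does not show that the treatment left them as they were. With normexp and quantile normalization, and likewise with the authors' normalized values, 8 members were called for treatment on chow before PH, where 11.8% and 10.1% of all genes were called. Of all genes called, the share higher moved from 52.2% to 90.5% on chow and from 55.6% to 12.5% on the MCD diet before PH when arrays were centred on the median. After PH it moved from 59.9% to 33.4% on chow with the percentile taken over probes well above background on all arrays, and from 59.4% to 38.6% on the MCD diet with the authors' values.

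Untreated mice after PH, compared between slides 3 and 5, had 9 of 31 members called with the MCD diet, 7 higher and 2 lower, where 12.5% of all genes were called, 6.52% higher and 5.96% lower. Pck1, Pfkfb2 and Slc37a4 lost this call with normexp (7 members called, 9.52% of all genes) and with the authors' values (8 members, 11.1%), and Gys2 with normexp. In a fit of the groups compared alone 6 members were called (8.40% of all genes), and Pygl, Gys2, Ugp2 and Ppp1r3c were not among them. The share of higher genes among all calls was 52.3% there, and 38.4% with the percentile taken over probes well above background on all arrays. In the same comparison 5 of 8 neutrophil markers were called higher, with summed levels of 3.74 to 5.47 in C and 6.04 to 7.78 in MCD mice. Of the other lists, 2 of 8 stellate and fibroblast markers were called lower, 1 of 9 lymphocyte and 1 of 10 hepatocyte markers higher, and 0 of 10 macrophage markers were called (limma, 2 at an unadjusted p under 0.05). The 5 cholangiocyte markers had a median change of -1.59, with 0 called by limma and 4 at an unadjusted p under 0.05. Of 15 clock genes, 7 were called higher and 2 lower there. Of 10 fasting and PPAR alpha genes 5 were called higher, and of 10 lipogenic genes that respond to feeding 2 were called lower. The part of these lists in the result was not tested. Between the times in treated mice, Ppp1r3g and Rgs16 fell in C+Fc-GLP-1 mice, 2 of 31 members, where 0.803% of all genes were called (0.456% higher, 0.348% lower). In M+Fc-GLP-1 mice 0 of 31 members passed with limma, with 9 at an unadjusted p under 0.05, where 1.62% of all genes passed (0.817% higher, 0.803% lower). Among the treated chow-fed mice, 1 of 10 macrophage (median change 1.23), 1 of 8 stellate and fibroblast and 1 of 9 lymphocyte markers were called higher. There 1 of 10 fasting genes was called lower and 0 of 15 clock genes were called by limma, with 5 at an unadjusted p under 0.05, and their part in the result was not tested. Gys2 had the lowest p in M+Fc-GLP-1 mice (log2 change -1.16, standard error 0.32, adjusted p = 0.0628). The median change over the 31 members was -0.39 in C+Fc-GLP-1 mice and -0.32 in M+Fc-GLP-1 mice, beside -1.77e-05 and -0.01 over all genes. The authors' values moved the all-gene medians to 0.49 and 0.47 and the share of higher calls from 56.7% to 99.5% and from 50.4% to 99.2%.

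Other genes of these pathways, 63 by a list drawn up with earlier results of these data known, of which Fbp2 and Ppp1r3e were too dim to test, were looked at in the same fit. In MCD against C mice before PH 18 of 61 were called (10 higher, 8 lower, median change 0.04), in treated mice before PH 6 (4 higher, 2 lower, median 0.02) and in treated mice after PH 11 (8 higher, 3 lower, median 0.19). Over all genes 25.8%, 10.6% and 13.1% were called, and the first 2 counts lie near those shares. Trib3, an inhibitor of AKT induced by amino acid shortage, was called higher in all 3, with log2 changes of 4.25, 3.02 and 3.29. Pdk4, the kinase that holds back pyruvate oxidation in fasting, was called in treated mice before PH, a rise of 2.63, while its interactions with treatment and time had an adjusted p of 0.536 and 0.598.

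Genes of the daily clock, of feeding and of other cell types moved in the same comparisons as the members, and their part in the results was not tested. Of 15 clock and clock output genes tested (Npas2 and Cry1 were too dim), 6 were called in MCD against C mice before PH (5 higher, 1 lower), 13 in treated mice before PH (10 higher, 3 lower) and 10 in treated mice after PH (8 higher, 2 lower). Dbp, an output of the clock, was 4.18 and 4.19 higher and Arntl, a core activator, changed by -4.59 and -4.04 in treated mice before and after PH. The log2 of the summed clock signal ran from 6.18 to 6.44 in C+Fc-GLP-1 and from 7.87 to 8.56 in M+Fc-GLP-1 mice after PH, from 6.20 to 7.32 and from 8.60 to 8.90 in those groups before PH, and from 6.57 to 8.15 in C and 8.09 to 8.60 in MCD mice before PH. Of 10 lipogenic genes that respond to feeding, 2, 9 and 7 were called lower in the 3 comparisons and none higher. Of 10 fasting and PPAR alpha genes, 4 (2 higher, 2 lower), 7 (all higher) and 5 (all higher) were called. The times of day and feeding states at sampling were not given in the labels.

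**Figure D5:**
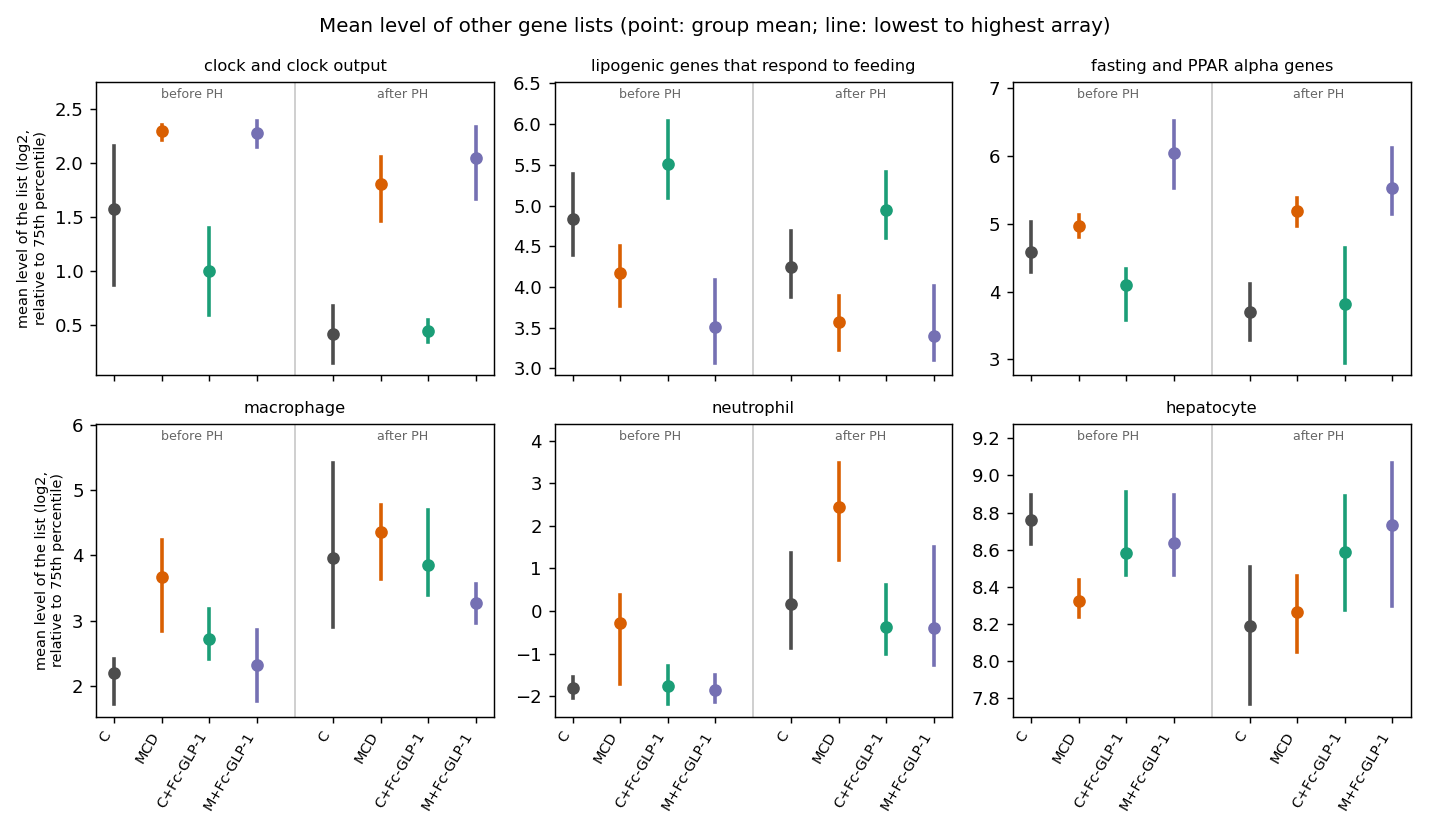
Mean level of 6 gene lists by group on the horizontal axis, as log2 relative to the 75th percentile of the array; points are group means and lines run from the lowest to the highest array of the 4. The clock list is higher and the lipogenic list lower in the MCD-fed than in the chow-fed group of each pair, as values that moved beside those of the members.

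Macrophage markers were called higher for 8 of 10 genes and lower for 1 in MCD against C mice before PH, with a summed level of 6.30 to 7.03 in C and 7.28 to 8.78 in MCD mice, and neutrophil markers higher for 3 of 8 (2.45 to 3.20 and 2.79 to 4.86). Stellate and fibroblast markers were called higher for 3 of 8 (6.35 to 6.71 and 7.81 to 8.83), lymphocyte markers higher for 2 and lower for 3 of 9, endothelial markers higher for 1 of 8, erythroid markers lower for 1 of 5, and cholangiocyte markers for 0 of 5 (limma, 0 at an unadjusted p under 0.05). Hepatocyte markers were called lower for 2 of 10, with 12.52 to 12.93 in C and 11.97 to 12.21 in MCD mice. In treated mice the macrophage list moved otherwise, with 0 of 10 called higher and 1 lower both before and after PH, a median change of -0.52 and -0.79, and 2 and 4 at an unadjusted p under 0.05. Of 10 hepatocyte markers, 0 were called before PH (limma, 1 at an unadjusted p under 0.05) and 1 after PH. The summed macrophage level in treated mice was 6.68 to 7.44 on chow and 5.98 to 7.23 on the MCD diet before PH, and after PH it was 7.89 to 8.90 on chow and 7.86 to 8.27 on the MCD diet.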

How the data were processed

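Total RNA of liver samples was labelled with Cy3 and hybridised to 32 Agilent arrays of 62976 spots, 1 array per sample, and the labels call the 4 arrays of a group biological replicates. The deposited intensity values are scanner output of Agilent Feature Extraction 10.7.3.1, background-subtracted and detrended within each array per the file headers, and not normalized between arrays. The authors also deposited log2 values, normalized between arrays with limma per the study's methods, by an option not given in the sources used here, which served as an alternative.

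Control spots and outlier spots were left out, spots of a probe were averaged (55681 probes), and log2 of the processed intensity minus the 75th percentile of each array was taken. Probes detected above background throughout 1 or more groups were kept, 29302 in all, and the probe with the highest mean signal stood for each of 21290 genes. All 8 groups entered 1 fit with limma 3.58.1 in R 4.3.3 with the data.table package, version 1.17.8, and p-values were adjusted over all genes by the Benjamini-Hochberg method, with a threshold of 0.05. The fit was tested on simulated data with changes of known size. No 2 arrays held identical values. Arrays give no counts, and 4 per group limit the precision. The main setting takes the percentile over probes, each counted once, a choice made after the files had been seen, and the percentile over all spots is an alternative. The others are normexp (offset 50) with quantile normalization, centring on the median, the percentile over probes well above background on all arrays, the mean of all probes of a gene, a replicate block over all groups, a replicate block within each condition for the changes over time (added after seeing the data), keeping dim probes, fitting the compared groups alone, and leaving out each array. Levels are given for every array for members called in a diet comparison within a slide whose groups did not overlap in at least 1 of these, and otherwise only where a member was called. The levels of G6pc, and those of Ppp1r3b outside its calls, are exceptions, chosen after their values were seen. The members and lists were chosen with earlier results of these data known. Gene positions and promoters come from RefSeq on GRCm38.p6, and the array design from mm9.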

Additional observations from a re-analysis of the deposited data

Results flagged for a closer look

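In each group with values on 4 arrays the gap between the highest or lowest array and its nearest neighbour was divided by the range of the group, and values above Dixon's 95% critical value were noted for 11 of 242 combinations of member and group, where chance gives about 1 in 20. Replicate 1 of C mice after PH was the lowest array for 3 members, with a gap of 0.9557 of the range for G6pc (4.49, nearest 7.76), 0.94 for Slc37a4 (4.25, nearest 5.02) and 0.9738 for Gbe1 (4.48, nearest 5.12). Replicate 2 of MCD mice before PH was the highest for Pfkfb2 (1.30, nearest 0.65, gap 0.9886) and the lowest for Foxo1 (3.03, nearest 3.45, gap 0.8593). Foxo1 was highest in replicate 2 of C mice before PH (4.59, nearest 3.87, gap 0.9307). Pcx was lowest in replicate 3 of MCD mice before PH (7.08, nearest 7.48, gap 0.9091) and in replicate 1 of C+Fc-GLP-1 mice after PH (6.83, nearest 7.44, gap 0.8351). In M+Fc-GLP-1 mice after PH, Gbe1 was highest in replicate 1 (5.53, nearest 4.83, gap 0.9609) and Ldha lowest in replicate 4 (8.41, nearest 9.22, gap 0.8872). Ppp1r3b was highest in replicate 2 of MCD mice after PH (7.58, nearest 6.89, gap 0.8412).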

How the results depend on the processing

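No member called in a comparison changed its direction under any alternative, but many calls lay near the threshold. Where the percent of all genes called in the same fit is given, it follows the count of members called in square brackets. Ranges with an array left out stand without that percent, so a lower count there is not set against all genes. The counts of MCD against C mice before PH fell from 10 [25.8] to 4 [24] with normexp and quantile normalization and 3 [21.5] with the authors' values. They ranged from 5 to 10 when each array was left out. For M+Fc-GLP-1 against C+Fc-GLP-1 mice before PH the count went from 8 [10.6] to 5 [12.1] with centring on the median and 4 [6.6] in a fit of only the groups compared (4 to 8 with an array left out). After PH it went from 11 [13.1] to between 7 and 10 with an array left out. For MCD against C mice after PH it went from 9 [12.5] to 6 [8.40] in a fit of only the groups compared, and ranged from 6 to 9 with an array left out. For the diet by Fc-GLP-1 interaction it was 2 [13.6] with centring on the median instead of 0 [5.81] (0 to 1 with an array left out). For Fc-GLP-1 on chow it went from 0 [2.28] to 8 [11.8] before PH with normexp, 4 [4.91] with median centring and 8 [10.1] with the authors' values, and after PH from 0 [2.24] to 1 [2.12] with the replicate block (0 to 1 with an array left out). For Fc-GLP-1 on the MCD diet it went from 2 [6.74] before PH to 5 [12.7] with normexp, 1 [8.11] with median centring and 5 [10.3] with the authors' values (1 to 2 with an array left out), and after PH from 0 [6.70] to 2 [5.16] with normexp and 1 [6.51] with the authors' values (0 to 1 with an array left out). Between the times, C+Fc-GLP-1 mice had 2 [0.803] members called, 11 [6.52] with normexp, 12 [37.9] with the authors' values, and 4 both without a filter on dim probes [2.18] and with the mean over a gene's probes [0.902]. M+Fc-GLP-1 mice had 0 [1.62], but 1 [2.96] with normexp, 6 [33.7] with the authors' values and 1 [1.69] with the mean over probes. The cause of these moves was not tested. Deviations of samples with the same replicate number correlated from -0.22 to 0.52 over 112 pairs (mean r = 0.02, and -0.005 over 336 pairs of other numbers). The numbers were therefore not treated as pairing the samples. Of 32 arrays, 14 had, among the 4 numbers, their highest mean correlation with the arrays of their own number in other groups. That is a hint from the data and not from the design. Over time within a condition, the 16 pairs of arrays that share a number correlated from -0.0467 to 0.0872 (mean 0.0128, and -0.0041 over 48 pairs of other numbers). Were they pairs of the same animals, a replicate block within each condition, chosen after seeing the data, would call 2 members in C+Fc-GLP-1 mice [0.235] (the same genes), 1 [1.25] in M+Fc-GLP-1 mice and 1 [0.136] in the diet by time interaction, Rgs16 in both of the latter, where the fit without it called 0. With the replicate block over all groups the counts of the 3 diet comparisons within slides were 9, 9 and 11, beside 10, 8 and 11 without it. Rgs16 in treated mice before PH was among the calls with the block. These counts are given without the percent of all genes and are not set against it. The strength of signal over background limits what can be said of Ppp1r3g, which was not well above background on 1 array.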
